A study of Mus musculus with 15 samples.

Results

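The Col2a1 and Sox9 loci were examined in 12 lists of FLAG ChIP-seq peaks from mouse osteoblasts. The members were all peaks with a midpoint in chr15:97750000-97920000, the window of Col2a1 and an upstream flank, or in chr11:112000000-113200000, the window of Sox9 and its flanks (mm9, 1-based). Peaks of all lists that shared at least 1 bp were merged into a site, which gave 10 sites in the Col2a1 window and 50 in the Sox9 window, 60 of the 61108 sites of the whole genome. The members were chosen by measured values: their windows were selected on peak positions, and the Col2a1 window on the early rows of a region that leads several lists. Therefore peak positions and row order are a description here and were not tested. In the text below, sites are numbered within each window in order of position.

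Chondrocytes, the cells of cartilage, and osteoblasts, the cells that form bone, share mesenchymal progenitors. Sox9 is an HMG-box transcription factor required for cartilage to form, and Col2a1, one of its direct targets, encodes the chain of type II collagen, the main fibrillar collagen of cartilage. Sp7 (Osterix) is a zinc finger factor needed for osteoblasts to mature, Dlx5 is a homeodomain factor of the developing skeleton that recognises AT-rich DNA, and Sp1 is a widely expressed relative of Sp7 that binds GC-rich DNA. Neither gene is a marker of mature osteoblasts, and peak positions alone do not show whether either gene was expressed.

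Primary cells were calvarial osteoblasts of C57BL/6 mice at postnatal day 1, either homozygous for a tagged Sp7 allele (genotype Sp7-BioFL/BioFL, 2 libraries) or wild-type (1 library, the FLAG background). MC3T3-E1 cells, an osteoblastic line from mouse calvaria at passages 5 to 10, were kept for 1 week with BMP2 at 10 ng/ml, beta-glycerophosphate at 10 mM and ascorbic acid phosphate at 50 ug/ml. FLAG was pulled down there from cells labelled Sp7, Dlx5, Sp1 or Sp7mut (2 libraries each) or GFP (1 library, the FLAG background). How the proteins were expressed in the line, and what is changed in Sp7mut, is not given in the sources used here, and the labels do not say whether the libraries of a group came from separate cultures or litters. The lists held 2666 and 3212 peaks for primary Sp7, 18624 and 6063 for line Sp7, 10519 and 14830 for Sp7mut, 30234 and 39749 for Dlx5, and 10549 and 28210 for Sp1. The wild-type list held 183 peaks and the GFP list 269. No read counts or scores come with the peaks, so sequencing depth is unknown.

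No control peak lay in either window. The 0 of 183 wild-type peaks allow a share of up to 1.64%, and the 0 of 269 GFP peaks a share of up to 1.12% (a limit of 3 counts, covering counting error only). The tagged lists had from 0.019% (Sp1 replicate 1) to 0.156% (primary Sp7 replicate 2) of their peaks in the windows, below both limits. Control lists this short thus cannot show that the sites are free of background. The nearest wild-type and GFP peaks stood 2.53 and 4.38 Mb from the Col2a1 window, and both stood 1.71 Mb from the Sox9 window. All 60 sites therefore held peaks of tagged proteins alone.

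The last site of the Col2a1 window, site 10 at chr15:97859520-97859705, held a peak in 9 of the 12 lists. The peaks of line Sp7 stood in row 1 of both lists, those of Dlx5 in rows 1 and 3, and those of Sp7mut in rows 4 and 8. In primary osteoblasts the Sp7 peaks stood in rows 38 and 107. Of the 37 and 106 rows ahead of them, 19 and 36 lay in a merged site that held a wild-type control peak. Sp1 met the site in replicate 2 alone, in row 9479 of 28210, and Sp1 replicate 1 had no peak there. Row order is the only ranking in the files and its rule is not stated, and rows of lists of different length do not measure a difference in binding.

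The 9 peaks at site 10 were nearly the same interval. Their widths ran from 148 to 182 bp, and the stretch common to all of them, chr15:97859536-97859676, was 141 bp long. Their midpoints spread over 20.5 bp. The mean midpoints of line Sp7 and Dlx5 lay 12.3 bp apart, and those of primary Sp7 and Dlx5 1.5 bp apart, while replicates differed by 5.5 bp in line Sp7, 4.5 bp in Sp7mut, 9 bp in primary Sp7 and 11 bp in Dlx5. The offset of line Sp7 and Dlx5 was thus larger than the replicate distance of either, and that of primary Sp7 and Dlx5 was smaller. With 2 replicates in a group these offsets were not tested. By width the site did not lead any list: its mean width percentile, counted from the widest peak, was between 48.8 and 59.9 in the 4 groups found there in both replicates.

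**Figure D1:**
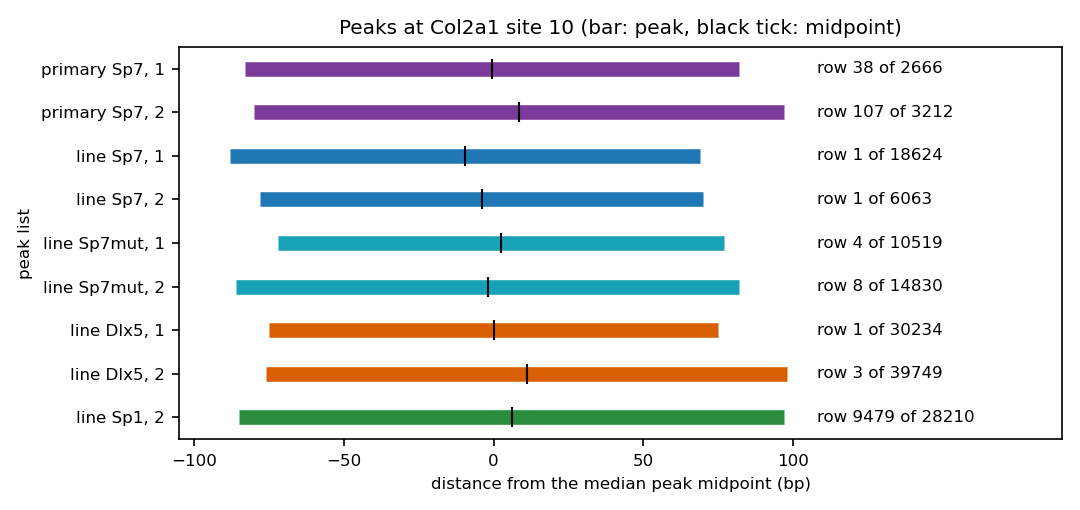
Peaks at Col2a1 site 10 in the 9 lists that held one. The x axis is the distance in bp from the median midpoint, bars are the peaks as deposited, black ticks are midpoints, and the text gives each peak's row in its list. The midpoints lie within 20.5 bp of each other, and the Sp1 peak stands in row 9479 while those of line Sp7, Sp7mut and Dlx5 stand in rows 1 to 8.

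The Col2a1 window was chosen on these early rows, so the place of site 10 among the sites of the genome is a description only. Of the 3345 sites with a peak in all 6 lists of line Sp7, Sp7mut and Dlx5, 3 were within the first 10 rows of each, and site 10 was 1 of them, with row 8 as its latest. By number of lists, 719 sites of the genome (1.18%) held peaks of 9 lists or more. The same 9 lists met at 409 sites.

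In the Col2a1 window 2 further sites were found by most lists. Site 1 (chr15:97769176-97769398), 90.1 kb before site 10, and site 5 (chr15:97828506-97828716), 30.8 kb before it, each held peaks of the same 8 lists. Line Sp7 replicate 2 and Sp1 replicate 1 had no peak at either, and 23 sites of the genome held these 8 lists. The peaks of Sp7mut at site 5 stood early, in rows 402 and 920 (3.82% and 6.20% of the way down the lists). Dlx5 stood in rows 3975 and 4865 (13.1% and 12.2%) and primary Sp7 in rows 1645 and 1103 (61.7% and 34.3%). The single line Sp7 peak at site 5 was near the end of its list, in row 17932 of 18624 (96.3%). At site 1, Dlx5 stood in rows 6015 and 3787 (19.9% and 9.53%), Sp7mut in rows 2243 and 2292 (21.3% and 15.5%), and primary Sp7 in rows 2028 and 1548 (76.1% and 48.2%). There the line Sp7 peak of replicate 1 stood in row 5675 (30.5%) and the Sp1 peak of replicate 2 in row 10040 (35.6%).

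A site was counted for a group when both replicates had a peak in it and the wild-type or GFP list of those cells had none. By this count, sites 1, 5 and 10 were shared by primary Sp7, Sp7mut and Dlx5, and they were all the sites that these groups had in the Col2a1 window. Over the genome, the share of sites counted was 3.44% for primary Sp7, 13.6% for Sp7mut and 39% for Dlx5, and 3 of the 10 Col2a1 sites were counted for each. Line Sp7 (8.4% of sites over the genome) was counted at site 10 alone, because only replicate 1 met the other 2. Sites counted for both primary Sp7 and Sp7mut made up 4.27% of Dlx5 sites over the genome and were 3 of 3 here. Of such sites of the genome, 24.1% lacked line Sp7 by the same count, and here 2 of 3 did. The window was chosen for site 10, so nothing is read from its share of sites.

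Sp1 (14.8% of sites over the genome) was counted at 1 Col2a1 site, a different one. Site 3, at chr15:97794469-97794845, held Sp1 peaks in rows 9316 of 10549 (88.3%) and 6723 of 28210 (23.8%), 167 and 361 bp wide, with midpoints 106 bp apart. Its only other peak was that of line Sp7 replicate 1, in row 10145 (54.5%). Dlx5, Sp7mut and primary Sp7 had no peak there. At sites 1, 5 and 10 Sp1 had a peak of replicate 2, the longer list, and none of replicate 1. The same held at sites 2, 6 and 9, and Sp1 went from 1 counted site to 7 when replicate 2 alone decided.

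The other 6 Col2a1 sites were thin. Site 2 held peaks of Dlx5 replicate 1, Sp7mut replicate 2 and Sp1 replicate 2. Sites 4, 6, 7, 8 and 9 held 1 peak each, 2 of Dlx5, 2 of Sp1 replicate 2 and 1 of Sp7mut replicate 2, all past the first 63% of their lists. Sites 5 to 9 stood close together, within 6632 bp, and site 10 stood apart, 24.4 kb after site 9 and 60.6 kb before the next site of any list.

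**Figure D2:**
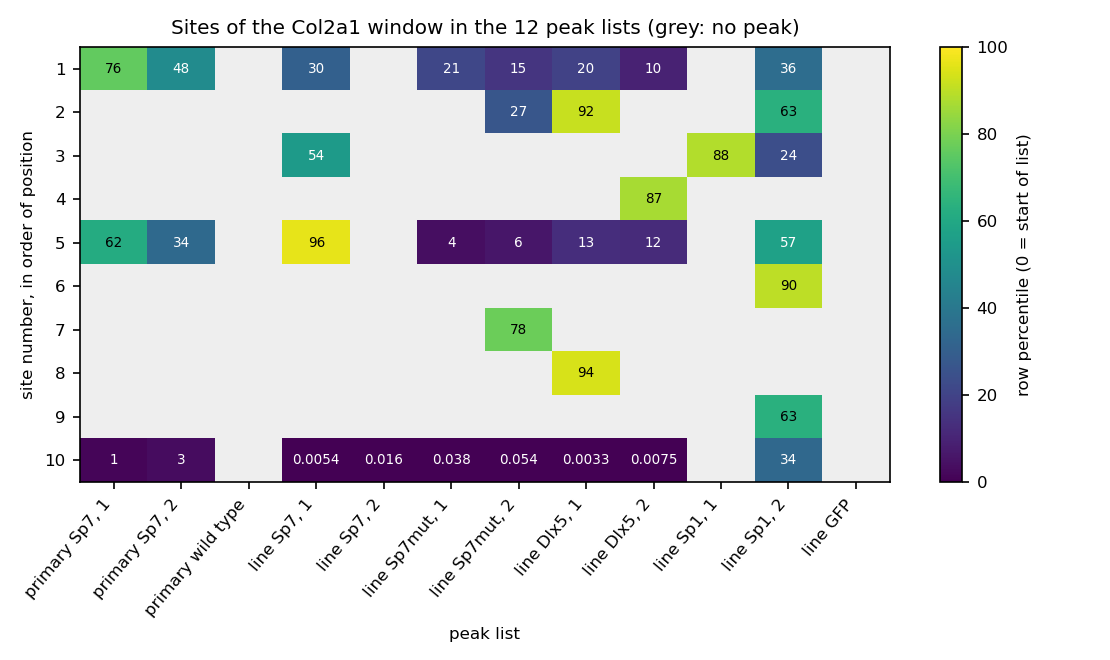
Row percentile of the earliest peak of each list (columns) at the 10 sites of the Col2a1 window (rows, in order of position). Dark cells are early rows, light cells late rows, and grey cells have no peak. Sites 1, 5 and 10 are filled in both replicates of primary Sp7, Sp7mut and Dlx5, and only site 10 is filled in both replicates of line Sp7.

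Sites lay close outside both edges of the Col2a1 window, while the first and last sites inside it lay 19.3 and 60.4 kb from the edges. The site just before the Col2a1 window, chr15:97744673-97745187, lay 5.07 kb from its edge and held all 8 lists of line Sp7, Sp7mut, Dlx5 and Sp1 but neither primary Sp7 list. The site just after it, chr15:97920344-97920447, lay 0.396 kb outside and was a Dlx5 site in both replicates. Around the Sox9 window the nearest outside sites lay 35.3 and 121 kb from the edges and held Dlx5 peaks only, in 2 lists and 1 list.

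At Sox9, 14 of the 50 sites (28%) were counted for a group, where 51.6% of sites over the genome were. All 14 were Dlx5 sites. Dlx5 was thus counted at 28% of the Sox9 sites, against 39% over the genome, and 75.5% of the counted sites of the genome were Dlx5 sites. No other group was counted at 9 of the 14 Dlx5 sites; over the genome 64.8% of Dlx5 sites had no other group. Primary Sp7, line Sp7 and Sp1 were counted at 1 Sox9 site each (2%), against 3.44%, 8.4% and 14.8% over the genome. Sp7mut was counted at 2 (4%), against 13.6%. These 5 sites were all different, so that no Sox9 site joined more than 2 groups. With 1 or 2 sites in each of these groups, and no such share computed over the genome, nothing is read from this.

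Single libraries gave a large part of the Sox9 sites. At 29 of the 50 sites only 1 list had a peak, a state that held for 39.5% of sites over the genome. Dlx5 replicate 2 gave 13 of these, Sp1 replicate 2 gave 6, Dlx5 replicate 1 gave 5, line Sp7 replicate 1 gave 3 and Sp7mut replicate 2 gave 2. The replicates differed in the number of Sox9 sites they met. Line Sp7 had 11 sites in replicate 1 and 1 in replicate 2, and Sp1 had 1 and 18, in each case with more in the longer list. Sp7mut had 3 and 11, Dlx5 20 and 30, and primary Sp7 1 and 2.

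**Figure D3:**
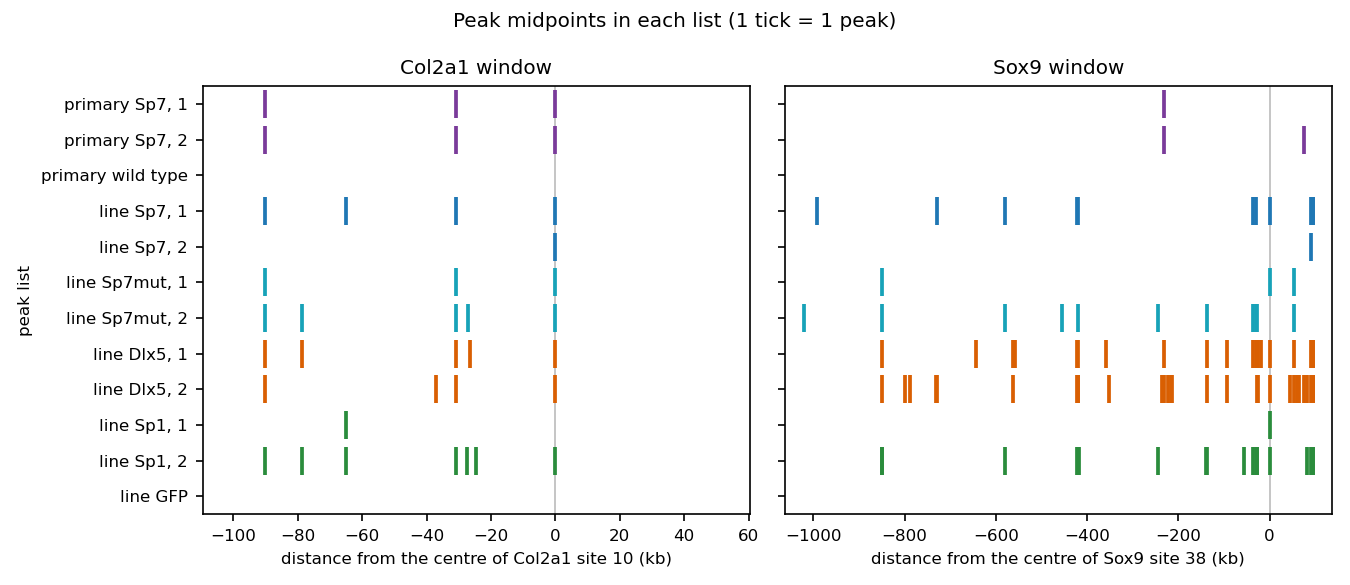
Midpoints of all peaks in the Col2a1 window (left) and the Sox9 window (right), 1 line of ticks for each list. The x axes give the distance in kb from the centre of Col2a1 site 10 and of Sox9 site 38. Most tagged lists stack at sites 1, 5 and 10 of the Col2a1 window. Sp1 replicate 1 has no tick at these sites, and line Sp7 replicate 2 has its tick at site 10 alone. In the Sox9 window the Dlx5 lists together hold the most ticks, and they are also the longest lists. Both control lists, the shortest, are empty.

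The Dlx5 sites at Sox9 had a median mean row percentile of 53.3, in a range of 13.8 to 71.9. Over all Dlx5 sites of the genome the median was 40.2. The 3 earliest were sites 15, 30 and 49. Site 15 (chr11:112641139-112641423) stood in rows 5396 of 30234 and 3909 of 39749, and it also held a peak of line Sp7 replicate 1 (row 11477, 61.6%) and of Sp1 replicate 2 (row 21730 of 28210). Site 30 (chr11:112969381-112969565) stood in rows 8018 and 2859, and site 49 (chr11:113158524-113158787) in rows 4188 and 8571. Dlx5 was the only factor with a peak at sites 30 and 49. Replicate midpoints of Dlx5 were 2.5 bp apart at site 30 and 18 bp at site 49, but 77 bp at site 15, where the peaks were 285 and 105 bp wide. Over the 14 sites the median distance between replicate midpoints was 57.5 bp, from 2.5 to 145.5 bp, against a median of 26.5 bp over all Dlx5 sites.

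Primary osteoblast Sp7 was counted at Sox9 site 24 (chr11:112831354-112831881), in rows 1062 of 2666 (39.8%) and 1056 of 3212 (32.9%). Dlx5 met it in both replicates, in rows 17701 and 11309 (58.5% and 28.5%). Neither line Sp7, Sp7mut nor Sp1 had a peak there. Its Dlx5 peaks were 416 and 119 bp wide, and the mean midpoints of primary Sp7 and Dlx5 lay 61 bp apart, where the replicates were 46.5 and 123.5 bp apart. A second primary peak, at site 43 (chr11:113138962-113139225), came from replicate 2 alone and met Dlx5 replicate 2 alone.

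Line Sp7 was counted at Sox9 site 47 (chr11:113153501-113153973), in row 7753 of 18624 (41.6%) and, late in the list, row 5238 of 6063 (86.4%). Dlx5 shared the site in rows 8741 and 12632 (28.9% and 31.8%), but the factors lay side by side. The mean midpoints of Sp7 and Dlx5 were 193.5 bp apart, whereas replicates differed by 35 and 23 bp. Peaks of Sp7 replicate 2 shared 5 and 13 bp with the Dlx5 peaks, and those of replicate 1 shared 98 and 106 bp. When peaks had to share at least 50% of both widths, Sp7 and Dlx5 had no site in common at Sox9. At Col2a1 site 10 they still shared theirs.

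Within the 6063 rows that both line Sp7 lists have, the replicates met at 1 site of both windows, Col2a1 site 10. Replicate 1 had 4 sites in those rows, and 3 of them had no peak in replicate 2. Replicate 2 had 2 sites there. Primary Sp7 replicates shared 4 of 4 and 5 sites over the 2666 rows both have. Dlx5 replicates shared 15 of 25 and 22 sites over 30234 rows. Sp7mut replicates shared 4 of 6 and 7 over 10519 rows, and Sp1 replicates 2 of 2 and 5 over 10549 rows. The same overlap was not computed over the genome, and the Col2a1 window was chosen on site 10. Nothing about these loci is therefore read from these counts.

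Sp7mut was counted at Sox9 sites 3 and 40, both Dlx5 sites with no line Sp7 peak. Site 3 (chr11:112213207-112213710) held Sp7mut in rows 8659 of 10519 (82.3%) and 3709 of 14830 (25.0%), Dlx5 in rows 8130 and 17322 (26.9% and 43.6%), and a pair of Sp1 replicate 2 peaks. Site 40 (chr11:113116032-113116459) held Sp7mut in rows 7323 and 13485 (69.6% and 90.9%) and Dlx5 in rows 28606 and 16492 (94.6% and 41.5%). Over the genome 44% of Sp7mut sites were line Sp7 sites and 71.1% were Dlx5 sites, which at Sox9 were 0 of 2 and 2 of 2. Counts this small leave the interval for the share with line Sp7 between 0 and 84.2% (95% Clopper-Pearson, counting error only). The interval treats sites as independent, which sites of the same locus are not.

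Sp1 was counted at Sox9 site 38 (chr11:113062930-113063303), the only Sox9 site with peaks of 6 lists. Over the genome 11.7% of sites held 6 lists or more, and no Sox9 site held more than 6. Sp1 peaks stood in rows 8544 of 10549 (81.0%) and 5277 of 28210 (18.7%). Dlx5 stood in rows 22638 and 27407 (74.9% and 69.0%), with single peaks of line Sp7 (row 5155, 27.7%) and Sp7mut (row 7322, 69.6%), both from replicate 1. The mean midpoints of Sp1 and Dlx5 were 8.75 bp apart, less than the 19 and 14.5 bp between their replicates. Primary Sp7 had no peak there.

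**Figure D4:**
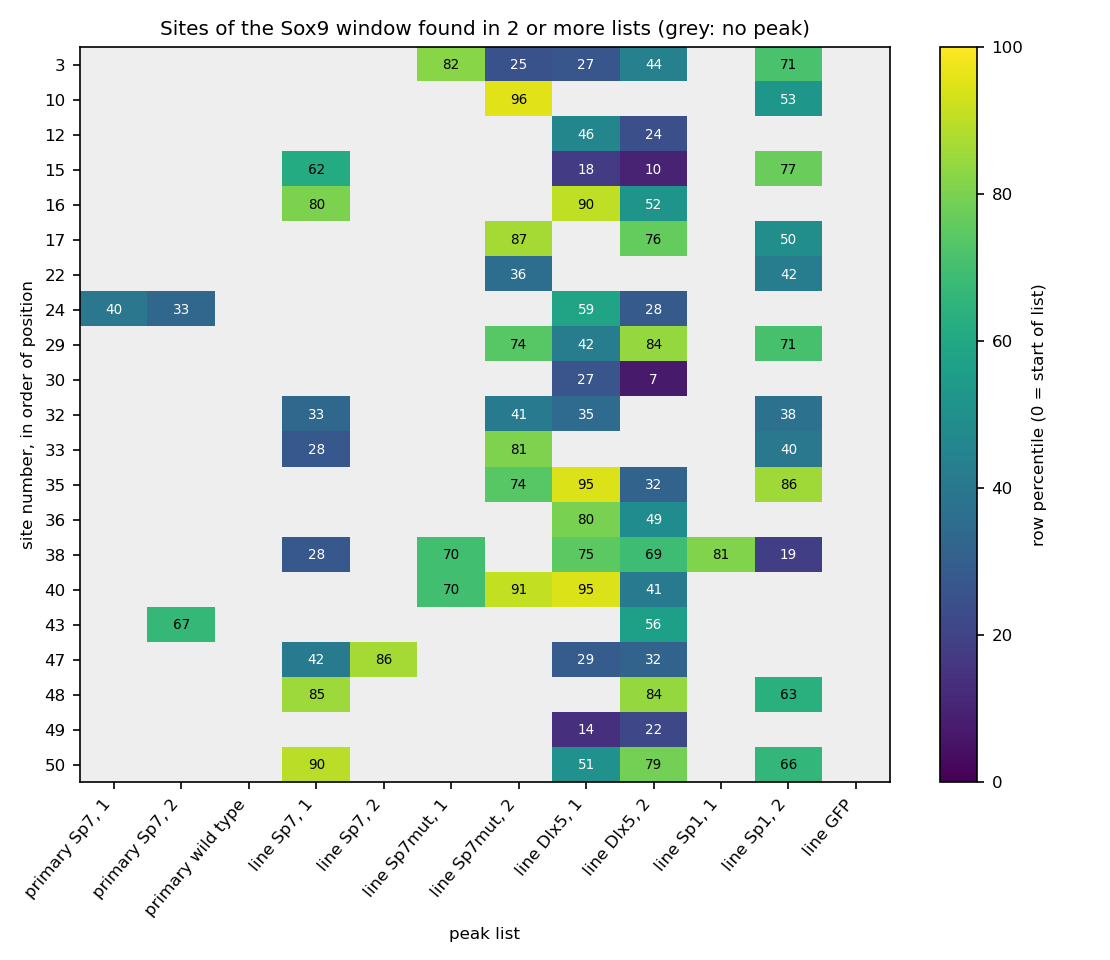
Row percentile of the earliest peak of each list (columns) at the 21 Sox9 sites found in 2 or more lists (rows, in order of position). Dark cells are early rows, light cells late rows, and grey cells have no peak. Most rows are filled in the Dlx5 columns, primary Sp7 fills both columns at site 24 alone, and no cell outside Dlx5 reaches the first 10% of its list.

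Of the 50 Sox9 sites, 31 (62%) had another site within 5 kb, a share near the 59.5% over the genome. A run of 5 sites, 15 to 19, lay within 3737 bp (chr11:112641139-112644875) and held 13 peaks of 5 lists, 5 of them from Sp1 replicate 2, 5 from Dlx5, 2 from line Sp7 replicate 1 and 1 from Sp7mut replicate 2. Dlx5 was counted at 2 of these sites and no other group at any. A second run of 5, sites 46 to 50, lay within 6207 bp (chr11:113153244-113159450) and held 14 peaks, with Dlx5 counted at 3 sites and line Sp7 at site 47. These runs were picked out after their positions had been seen.

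Over both windows together, line Sp7 was counted at 2 sites and primary Sp7 at 4. Both line Sp7 sites were Dlx5 sites, as were 87.1% of line Sp7 sites over the genome. Of these 2 sites, 1 was an Sp7mut site (71.4% over the genome), 1 a primary Sp7 site (16.5%) and 0 were Sp1 sites (32.8%). All 4 primary Sp7 sites were Dlx5 sites (69.7% over the genome), 3 were Sp7mut sites (49.8%), 1 was a line Sp7 site (40.2%) and 0 were Sp1 sites (5.13%). At Sox9, line Dlx5 shared site 24 with primary Sp7 and site 47 with line Sp7. Dlx5 was pulled down in the cell line alone. Of the 2 Sp1 sites, 1 was a Dlx5 site (33.9% over the genome). Sites of 1 locus are not independent, so these counts are not set against the genome by a test.

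The density of counted sites differed between the windows. In the Col2a1 window primary Sp7 had 17.6 sites per Mb against 0.968 over chromosome 15, Sp7mut 17.6 against 3.93 and Dlx5 17.6 against 11.96. Line Sp7 had 5.88 against 2.57 and Sp1 5.88 against 3.88. These values rest on 1 or 3 sites in 170 kb and on the choice of the window. In the 1200.0 kb of the Sox9 window, primary Sp7 had 0.833 sites per Mb against 0.952 over chromosome 11, and Dlx5 11.7 against 14.5. Line Sp7 had 0.833 against 3.57, Sp7mut 1.67 against 6.51 and Sp1 0.833 against 7.26. The values of these 3 groups rest on 1 or 2 sites each. With 2 lists against 2, the smallest p of an exact two-sided permutation test is 0.33, and no test between groups was made.

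**Figure D5:**
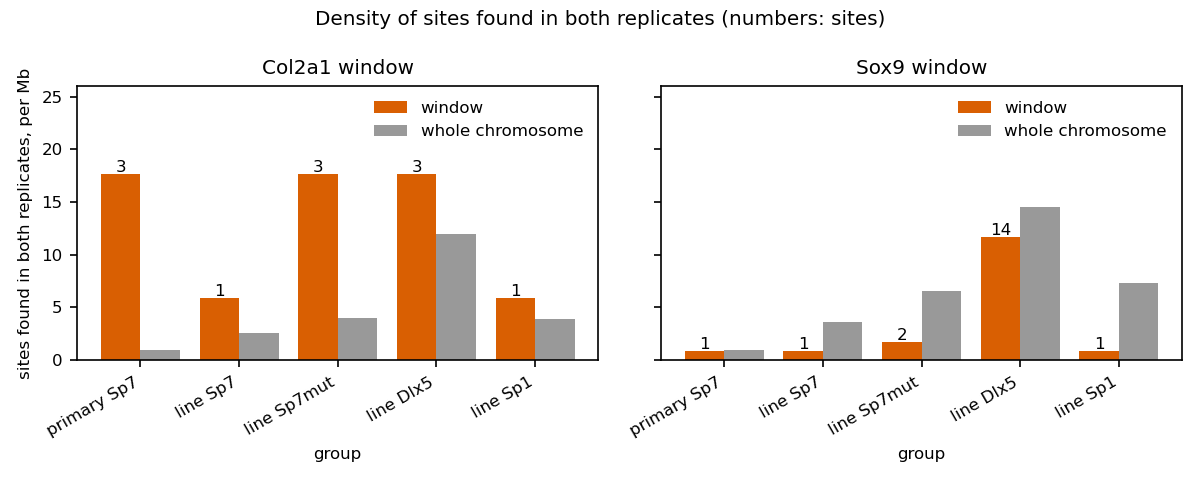
Sites found in both replicates of each group per Mb of the window (orange) and of its whole chromosome (grey), for the Col2a1 window (left, chromosome 15) and the Sox9 window (right, chromosome 11). Numbers above the orange bars are counts of sites. At Sox9 only the Dlx5 bar, with 14 sites, rests on more than 2 sites.

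Where these sites lie relative to the exons and start sites of the genes is not given here, because no gene annotation or sequence of mm9 was used. In a RefSeq gene table of another build, GRCm38.p6, the protein-coding neighbours of Col2a1 are Tmem106c and Senp1, and those of Sox9 are Gm11677 and Slc39a11. That table served for names alone, and the sites were not assigned to any gene.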

How the data were processed

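Of 15 samples, 12 have a deposited peak list, 1 for each FLAG ChIP-seq library, and 3 are input DNA. Each list holds the authors' chromosome, start and end, with no score. Per the labels, primary lists were called against 1 primary input, line Sp7 and Dlx5 against a first line input, Sp1 and Sp7mut against a second, and the input of GFP is not stated, so input and factor cannot be told apart between these pairs. Per the submitters' processing notes, coordinates are those of mm9. The sources used here name no aligner, peak caller or threshold.

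Groups and replicates came from sample titles. Starts were raised by 1. Row percentile is 100 times the row number over the number of rows; a mean row percentile averages both replicates. Peaks sharing 1 bp or more, directly or through others, formed a site. Genome values used the same rules over all sites. The windows, groups and comparisons were chosen with earlier results of these data known. Sites were named when they held 6 or more lists or were among the 3 earliest of a group in its window; the other Col2a1 sites, Sox9 sites 17 and 43 and the runs of sites were chosen after their values were seen. Merging and counting were tested on simulated lists of widely spaced sites with peaks of equal width. Sites close together, or joined by a few bases, were not covered by that test. Scripts ran in Python 3.11.15 (scipy 1.17.1, pandas 2.3.3, numpy 2.4.6); figures were drawn with matplotlib 3.10.9.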

Additional observations from a re-analysis of the deposited data

How the results depend on the processing

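The 24 counts of sites were recomputed under 8 alternatives. Keeping control peaks, or taking any shared base as inside the window, could change no count, because no control peak lies in a window and no peak crosses a window edge. In the first 50% of rows of each list, the Col2a1 counts of primary Sp7, alone, with Dlx5 and with Sp7mut fell from 3 to 1 and that of Sp1 to 0. At Sox9, Dlx5 fell from 14 to 6, and line Sp7, Sp7mut, Sp1, and the sites shared by Dlx5 with line or primary Sp7 fell to 0. In the wider 50% of peaks every shared Col2a1 count above 0 fell to 0, as did primary Sp7, line Sp7 and Dlx5, while Sp7mut fell to 1; at Sox9, Dlx5 fell to 2, and Sp1 and both counts shared with Dlx5 to 0. With 50% overlap, Sp1 at Col2a1 and both Sp7 counts shared with Dlx5 at Sox9 fell to 0, and Dlx5 at Sox9 to 8. With windows shortened by 10% at each end, line Sp7 at Sox9, alone and with Dlx5, fell to 0. Sp7mut fell to 1 there, and Dlx5 fell from 14 to 10. By width in place of row order, Col2a1 site 10 moved to a mean percentile of 59.9 in primary Sp7, 57.2 in line Sp7, 48.8 in Sp7mut and 58.7 in Dlx5.

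With a replicate left out, so that 1 list decides, Col2a1 counts ranged from 1 to 4 for line Sp7, 3 to 5 for Sp7mut, 4 to 5 for Dlx5 and 1 to 7 for Sp1. Line Sp7 shared 1 to 3 with Dlx5, 1 to 3 with Sp7mut, 1 with Sp1 in both cases, and primary Sp7 shared 1 to 3 with line Sp7 and 0 to 3 with Sp1. At Sox9 the counts ranged from 1 to 2 for primary Sp7, 1 to 11 for line Sp7, 3 to 11 for Sp7mut, 20 to 30 for Dlx5 and 1 to 18 for Sp1. Line Sp7 there shared 1 to 6 with Dlx5, 0 to 1 with Sp1 and 0 to 1 with Sp7mut, and primary Sp7 shared 1 to 2 with Dlx5. In both windows the larger counts came from line Sp7 replicate 1 and from replicate 2 of Sp1 and Sp7mut; for Dlx5 they came from replicate 1 at Col2a1 and replicate 2 at Sox9. No paired analysis was possible because no result comes from a fitted test.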

Other observations

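In each of the 10 lists of tagged proteins, successive rows came more often from the same chromosome near the end than at the start. In Sp7mut replicate 1 the next row was on the same chromosome for 7.23% of the first 10% of rows and 24.9% of the last 10%, and in Dlx5 replicate 2 for 6.77% and 16.8%. In the Sox9 window 11 pairs of peaks stood within 5 rows of each other in 1 list. In 9 of the 11 the later row was the later position, as in line Sp7 replicate 1 rows 6196 and 6197 (sites 11 and 32). Rows 5155 and 5156 of that list (sites 38 and 33) went the other way. In Sp1 replicate 1 the change was the smallest, from 7.12% to 7.87%. The cause was not tested.

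Some lists held peaks that overlapped each other. At Sox9 site 17 a pair of Sp1 replicate 2 peaks, chr11:112643184-112643586 and chr11:112643435-112643834, were 403 and 400.0 bp wide and stood in rows 23084 and 13994. Over the genome 333 neighbouring pairs of peaks overlapped in that list of 28210 peaks, and 4 and 5 in the primary Sp7 lists of 2666 and 3212. The wild-type list of 183 peaks held 3 such pairs and the GFP list of 269 held 4. These lists differ in length, so the counts do not compare the factors. Peaks under 50 bp made up 4.29% of Sp1 replicate 2 and 0.563% of primary Sp7 replicate 1.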
